A study of Mus musculus with 6 samples.

Results

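The 89 potassium channel genes described here were chosen by name, from annotated symbols that begin with Kcn, among the 22180 gene symbols that stood alone on a transcript cluster (the set of probes that the array reads as 1 gene). Names ending in os, as or -ps were left out. They comprised 36 voltage-gated subunits, 14 inward rectifiers, 13 channels with 2 pore domains, 8 calcium- or sodium-activated channels, 17 auxiliary subunits and regulators, and the non-coding RNA *Kcnq1ot1*, whose symbol also met the rule. For 7 genes with more than 1 transcript cluster, the one with the highest mean was used.

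Hippocampal RNA came from 3 wild-type females and 3 females homozygous for the NL-G-F allele of *App* and lacking *Mutyh* (Mutyh-/-), called NL-G-F·*Mutyh* mice below. All were 6 months of age, and each gave 1 array. The knock-in allele carries the Swedish, Arctic, and Iberian mutations in a humanized amyloid sequence under the endogenous *App* promoter, and *Mutyh*, encoding a DNA glycosylase that removes adenine opposite 8-oxoguanine, is disrupted in every cell. As the NL-G-F·*Mutyh* mice differ from wild-type mice at both genes, the contributions of *App* and *Mutyh* cannot be told apart. The parent lines had been backcrossed to C57BL/6J, and wild-type and NL-G-F·*Mutyh* mice from crosses between them were then bred as separate inbred strains.

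Potassium channels let potassium leave or enter cells and so set the resting potential, shape the action potential, and limit repetitive firing. Voltage-gated channels are tetramers that open on depolarization, inward rectifiers and 2-pore-domain channels act near rest, and calcium-activated channels couple firing to calcium entry. In the hippocampus they are carried mainly by neurons, with the inward rectifier *Kcnj10* typical of astrocytes, and microglia and vessels carry channels of their own. In whole tissue, fewer cells of a type and less RNA per cell cannot be told apart.

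A feature of the deposited values bears on every comparison below. Among 41345 transcript clusters, 2 arrays from NL-G-F·*Mutyh* mice held the same value, to every deposited digit, for 4.63% to 5.13%, whereas 2 wild-type arrays did so for 0.0822% to 0.114%, and no array of one group matched an array of the other for more than 3 transcript clusters. All 3 NL-G-F·*Mutyh* arrays were identical for 619 transcript clusters and all 3 wild-type arrays for 1. How the arrays were combined during summarization is not given in the sources used here, and the wild-type arrays were taken over from an earlier series, so genotype, series, and any separate summarization cannot be told apart. The wild-type signals in the files appear not to be those that the study compared. Mean levels that it lists for selected transcript clusters lay on the whole close to the files for NL-G-F·*Mutyh* mice and less close for wild-type mice. This did not hold for each of them, the listed wild-type levels of *C1qb* and *Csf1r* being close to the files. For a second transcript cluster of *Kcna4*, described below, the wild-type mean in the files was 7.98. The study lists a higher level, by more than the spread of the 3 wild-type values. An offset shared by all wild-type arrays would not show in the standard errors below, and its size for the other potassium channel genes was not tested. Of the potassium channel genes, 10 had identical NL-G-F·*Mutyh* values on 2 or 3 arrays, 3 of them among the tested genes (*Kcnn1*, *Kcnmb2*, and *Kcne2*), and none of the 16 genes that lay past an unadjusted *p* of 0.05 did.

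**Figure D1:**
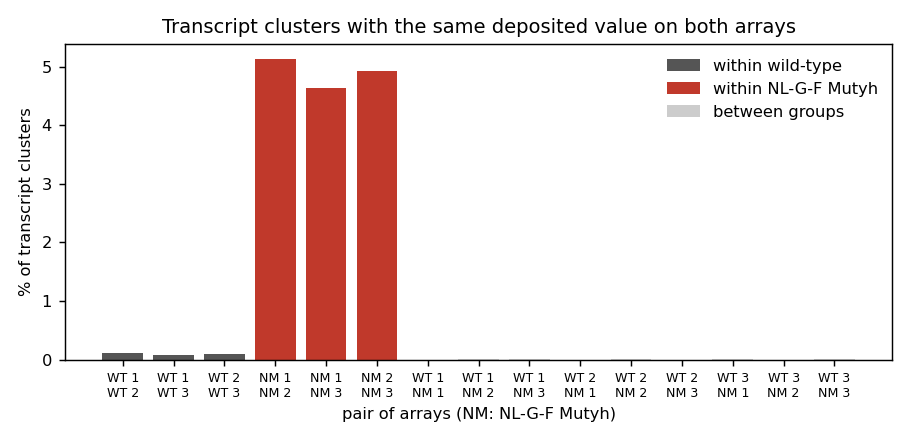
Share of all 41345 transcript clusters (y axis, %) with the same deposited log2 value on both arrays of each pair (x axis), with WT for wild-type and NM for NL-G-F·*Mutyh* mice. The 3 pairs within the NL-G-F·*Mutyh* group reach 4.63% to 5.13%, and all other pairs lie at or below 0.114%.

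*App* itself was 12.15, 12.05, and 11.97 on the log2 scale in wild-type replicates 1, 2, and 3 and 11.83, 11.91, and 12.07 in NL-G-F·*Mutyh* replicates 1, 2, and 3, with overlapping values. *Mutyh* was 5.44, 5.11, and 5.28 and then 5.37, 5.46, and 5.42, below the minimum signal in both groups, so these arrays do not check its loss. Of the markers listed for hippocampal neurons, 6 of 6 for granule cells, 4 of 5 for CA1, and 5 of 6 for CA2 and CA3 pyramidal cells reached the minimum. The CA1 markers differed by a mean of -0.11, with 1 lower at an unadjusted *p* under 0.05 (*Mpped1*, -0.48). The CA2 and CA3 markers differed by a mean of 0.125, with 1 higher (*Iyd*, 0.43). Of 5 general neuronal markers, 1 lay lower (*Tubb3*, -0.45), and their mean difference was -0.06. Relative to the wild-type mean, 10 microglial markers averaged 0.38 to 0.43 on the log2 scale in NL-G-F·*Mutyh* mice and -0.05 to 0.06 in wild-type mice, and 7 of them lay higher at an unadjusted *p* under 0.05. *Itgam* differed by 0.14, *Cx3cr1* by 0.004, and *Tmem119* by -0.115, none of them past that level. The 6 dentate granule cell markers averaged 0.54, 0.45, and 0.07 in NL-G-F·*Mutyh* replicates 1, 2, and 3 and -0.12 to 0.12 in wild-type mice, 3 of the 6 lying higher. The 6 interneuron markers averaged -0.13 to 0.03 against -0.12 to 0.12, and the 5 mural cell markers 0.02 to 0.13 against -0.16 to 0.12. Of 6 thalamus markers, 1 lay lower (*Slc17a6*, -0.76) and 1 higher (*Prkcd*, 0.23) at an unadjusted *p* under 0.05. Of 5 endothelial markers, 1 lay lower (*Cldn5*, -0.43). Of 6 oligodendrocyte markers, 3 (*Mbp*, *Mog*, and *Cnp*) lay lower at an unadjusted *p* under 0.05. *Mag* differed by -0.15, and *Mobp* and *Cldn11* by 0.15 and 0.09 the other way, all with overlapping values. The 6 averaged -0.17 to -0.05 in NL-G-F·*Mutyh* and -0.09 to 0.10 in wild-type mice. Of all tested transcript clusters, 4.75% lay lower and 8.88% higher at that level. The part of these cell types in the differences below was not tested.

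A gene was tested where the mean of either group reached an intensity of 50 (log2 signal 5.64), which 67 of the 89 potassium channel genes did. None passed limma's test after Benjamini-Hochberg adjustment across the 21159 transcript clusters tested (0.0614% of which passed). At an unadjusted *p* under 0.05, 12 lay lower in NL-G-F·*Mutyh* mice and 4 higher. This was 17.9% lower and 5.97% higher, where 4.75% and 8.88% of all tested transcript clusters lay lower and higher. The 3 values of the groups did not overlap for 14 genes that lay lower and 8 that lay higher, with 8.11% and 13.9% of all tested transcript clusters doing so. The median log2 difference was -0.03 over the 67 genes and 0.02 over all tested transcript clusters. Without wild-type replicate 1 the number of lower genes was 6. The number of higher genes was 1 without wild-type replicate 2 or NL-G-F·*Mutyh* replicate 1, 2 without NL-G-F·*Mutyh* replicate 2, and 9 without NL-G-F·*Mutyh* replicate 3. The counts thus changed with single arrays, and none of the 16 genes is an adjusted call.

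**Figure D2:**
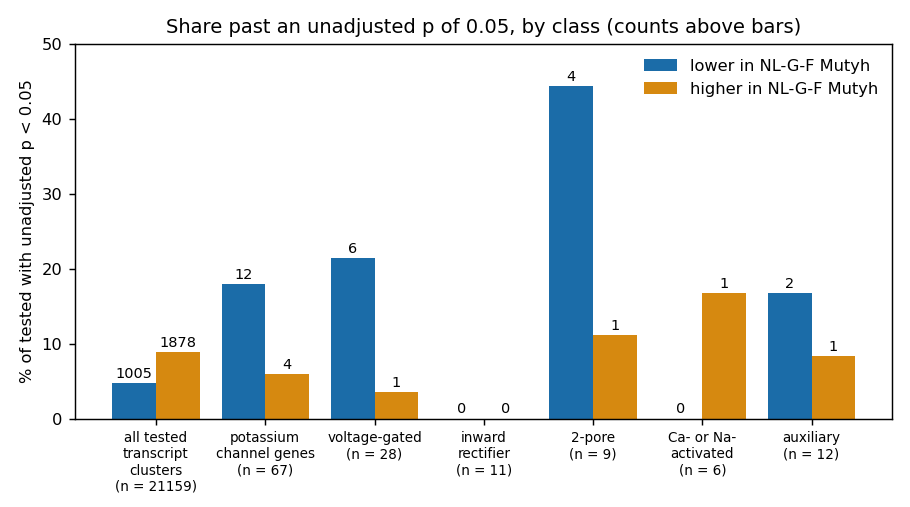
Share of tested genes (y axis, %) with an unadjusted *p* under 0.05 in limma that lay lower (blue) or higher (orange) in NL-G-F·*Mutyh* than in wild-type mice, for all tested transcript clusters and for potassium channel genes by class (x axis, with the number tested). Counts stand above the bars, with 12 lower and 4 higher among the 67 potassium channel genes and 0 of either among the inward rectifiers.

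Of the 16 genes, 7 kept an unadjusted *p* under 0.05 with each array left out in turn and in each other setting in which they were tested. These were *Kcns1*, *Kcnd1*, *Kcnf1*, *Kcnk4*, *Kcnmb1*, and *Kcnip1*, which lay lower in NL-G-F·*Mutyh* mice, and *Kcnt2*, which lay higher. *Kcns1* was not tested with the minimum signal asked of both groups, since it reached the minimum in wild-type mice only. Each of the 7 had 3 NL-G-F·*Mutyh* values outside the range of the wild-type values. Among the 50 named genes, defined with the processing below, 9 outside the 16 passed that level in 1 or more alternatives. These were *Kcnip2* in 7, *Kcna4* in 6, *Kcnj6*, *Kcnn3*, and *Kcnt1* in 2 each, and *Kcna1*, *Kcnab2*, *Kcnj9*, and *Kcnq3* in 1 each. The remaining tested genes were not followed gene by gene across the alternatives, so the list is not complete.

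*Kcnf1* and *Kcns1* encode silent voltage-gated subunits, which form no channel alone but join subunits of the *Kcnb* family and change how these open and close. *Kcnf1* was 7.76, 7.61, and 7.28 on the log2 scale in wild-type replicates 1, 2, and 3 and 6.88, 6.94, and 7.17 in NL-G-F·*Mutyh* replicates 1, 2, and 3. All NL-G-F·*Mutyh* mice lay below the lowest wild-type mouse, replicate 3 by the smallest margin. The log2 difference was -0.55 (standard error 0.14), or 68.1% wild type (unadjusted *p* = 0.00616, limma adjusted *p* = 0.221), and it ran from -0.69 to -0.45 with 1 array left out.

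*Kcns1* was 6.02, 6.15, and 6.00 in wild-type and 5.50, 5.61, and 5.72 in NL-G-F·*Mutyh* mice, again without overlap. Its log2 difference was -0.44 (standard error 0.08), or 73.5% wild type (unadjusted *p* = 0.00134, limma adjusted *p* = 0.181), the smallest *p* of the 67 genes. The NL-G-F·*Mutyh* mean of 5.61 lay under the minimum, so *Kcns1* was the 1 gene that entered the test through a single group.

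The other silent subunits lay on both sides of wild type. *Kcng4* was 6.38, 6.11, and 6.07 in wild-type and 6.51, 6.65, and 6.35 in NL-G-F·*Mutyh* mice, with overlapping values (0.31, standard error 0.12, unadjusted *p* = 0.0321, limma adjusted *p* = 0.329), and passed that level with 2 of the 6 arrays left out in turn. *Kcns2* differed by 0.22 (95% interval -0.04 to 0.49), *Kcng3* by -0.21 (-0.58 to 0.15), *Kcnv1* by 0.07 (-0.12 to 0.26), and *Kcns3* by -0.04 (-0.21 to 0.14). In all, 2 of the 9 tested silent subunits lay lower and 1 higher at an unadjusted *p* under 0.05, against 4.75% and 8.88% of all tested transcript clusters. *Kcnb2*, of the family they join, was 8.07, 8.04, and 8.08 in wild-type and 8.07, 8.14, and 7.997 in NL-G-F·*Mutyh* mice. Its values overlapped and the difference was 0.01 (95% interval -0.16 to 0.17).

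*Kcnd1*, *Kcnd2*, and *Kcnd3* encode the pore subunits of the somatodendritic A-type current, which opens and inactivates rapidly below the firing threshold, and *Kcnip1* to *Kcnip4* encode their calcium-binding partners. *Kcnd1* was 6.63, 6.70, and 6.64 in wild-type and 6.29, 6.40, and 6.42 in NL-G-F·*Mutyh* mice. The spread within either group was small beside the gap, and the log2 difference was -0.29 (standard error 0.07), or 81.9% wild type (unadjusted *p* = 0.005, limma adjusted *p* = 0.216). *Kcnd2*, the gene of the family typical of hippocampal pyramidal cells, differed by 0.10 (95% interval -0.07 to 0.28), and *Kcnd3* by -0.13 (-0.33 to 0.07).

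*Kcnip1*, which in hippocampus is known from interneurons, was 7.20, 7.24, and 7.03 in wild-type and 6.74, 6.79, and 6.96 in NL-G-F·*Mutyh* mice. The values did not overlap, and the log2 difference was -0.32 (standard error 0.09), or 79.9% wild type (unadjusted *p* = 0.0105, limma adjusted *p* = 0.258). *Kcnip2* was 8.94, 8.85, and 8.75 in wild-type and 9.21, 9.18, and 8.90 in NL-G-F·*Mutyh* mice, a difference of 0.25 the other way (standard error 0.11, unadjusted *p* = 0.052). NL-G-F·*Mutyh* replicate 3 lay within the wild-type range for *Kcnip2*, and without it the difference was 0.35 (unadjusted *p* = 0.0075). *Kcnip4* differed by 0.10 (95% interval -0.07 to 0.27) and *Kcnip3* by 0.04 (-0.19 to 0.27). Of these 7 A-type genes, 2 lay lower at an unadjusted *p* under 0.05 and none higher, where 4.75% and 8.88% of all tested transcript clusters did. Of the further A-type partners on the list of channel partners, *Dpp6* differed by 0.09 and *Dpp10* by -0.55 with a wide interval (-1.18 to 0.08), its values being 8.72, 8.80, and 8.17 in wild-type and 7.74, 7.75, and 8.55 in NL-G-F·*Mutyh* mice.

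*Kcnmb1*, encoding an auxiliary subunit of the large-conductance calcium-activated channel known chiefly from smooth muscle, was 6.71, 6.91, and 7.17 in wild-type and 6.37, 6.33, and 6.55 in NL-G-F·*Mutyh* mice. All NL-G-F·*Mutyh* values lay below the wild-type ones, with a log2 difference of -0.51 (standard error 0.13), or 70.2% wild type (unadjusted *p* = 0.00593, limma adjusted *p* = 0.22). *Kcnma1*, encoding the pore of that channel, was 10.29, 10.30, and 10.11 in wild-type and 10.15, 10.18, and 10.18 in NL-G-F·*Mutyh* mice, overlapping, with a difference of -0.07 (95% interval -0.25 to 0.11). The neuronal auxiliary subunit gene *Kcnmb4* differed by -0.11 (-0.35 to 0.14). *Kcnmb2* differed by -0.21 (-0.50 to 0.09), and its 3 NL-G-F·*Mutyh* values were identical at 5.72. Thus *Kcnmb1* was the 1 gene of 4 tested for this channel that lay past an unadjusted *p* of 0.05, although all 4 differences were negative. Of all tested transcript clusters, 4.75% lay lower at that level and 43.2% had a negative difference. A second tested transcript cluster of *Kcnmb4* differed by 0.08 the other way (95% interval -0.08 to 0.23). A second transcript cluster of *Kcnma1* read 3.98, 3.67, and 3.81 in wild-type and 4.84, 4.75, and 4.80 in NL-G-F·*Mutyh* mice, below the minimum and opposite in direction to the first.

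In the RefSeq annotation of GRCm38.p6, *Kcnmb1* lies inside the span of *Kcnip1* on chromosome 11, on the opposite strand. Both genes lay lower in NL-G-F·*Mutyh* mice, as described above. The positions of their probes were not analysed here, so whether the probe sets read 1 transcript in common was not tested. *Kcnj16* and *Kcnj2* (chromosome 11), *Kcnj9* and *Kcnj10* (chromosome 1), *Kcna1* and *Kcna6* (chromosome 6), and *Kcna2* and *Kcna3* (chromosome 3) are the further pairs of tested neighbours within 100 kb. No gene of these pairs lay past an unadjusted *p* of 0.05, where 13.6% of all tested transcript clusters did.

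**Figure D3:**
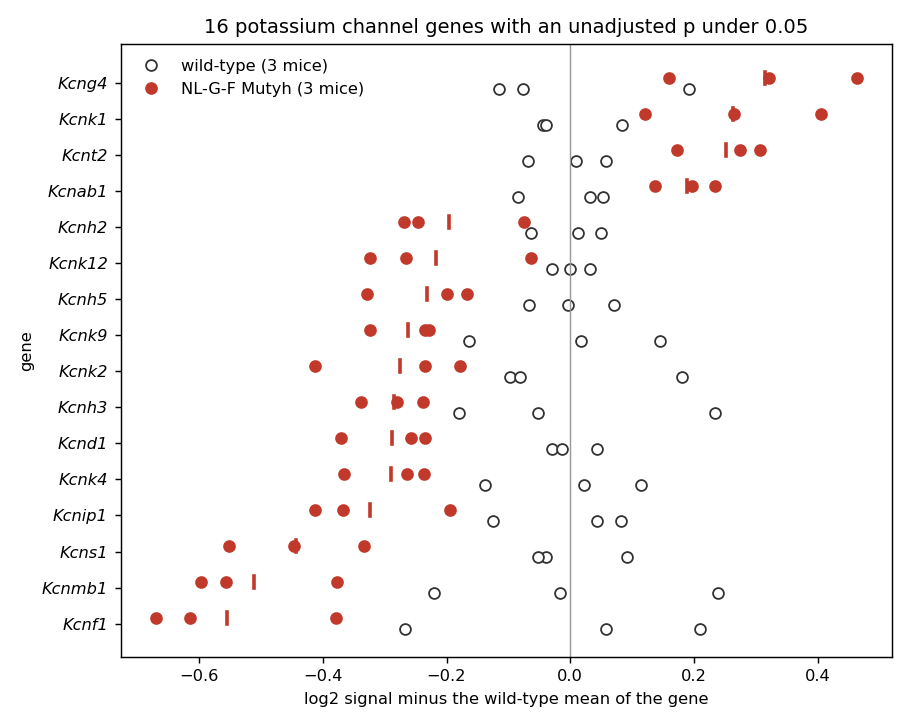
Log2 signal of each mouse minus the wild-type mean of the gene (x axis) for the 16 potassium channel genes with an unadjusted *p* under 0.05 (y axis). Open circles are wild-type mice, filled circles NL-G-F·*Mutyh* mice and short bars their mean. *Kcnf1* and *Kcnmb1* lie farthest to the left, at mean differences of -0.55 and -0.51, and the values overlap for *Kcng4*.

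Channels with 2 pore domains carry background potassium current. *Kcnk4* and *Kcnk2*, encoding the mechanically gated and lipid-sensitive channels TRAAK and TREK, both lay lower. *Kcnk4* was 7.62, 7.52, and 7.37 in wild-type and 7.24, 7.26, and 7.14 in NL-G-F·*Mutyh* mice, without overlap (-0.29, standard error 0.09, 81.8% wild type, unadjusted *p* = 0.0138, limma adjusted *p* = 0.274). *Kcnk2* was 7.58, 7.30, and 7.32 in wild-type and 7.22, 7.16, and 6.99 in NL-G-F·*Mutyh* mice. Its groups were separate only by a small gap (-0.28, standard error 0.11, unadjusted *p* = 0.0372), and it passed this level with 3 of the 6 arrays left out in turn. *Kcnk10*, the third gene of this subfamily, was nearly the same in all mice, from 7.23 to 7.30 in wild-type and 7.26 to 7.28 in NL-G-F·*Mutyh* mice (0.005, 95% interval -0.14 to 0.15).

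*Kcnk9*, encoding an acid-sensitive channel, was 7.57, 7.69, and 7.38 in wild-type and 7.31, 7.23, and 7.32 in NL-G-F·*Mutyh* mice (-0.26, standard error 0.09, unadjusted *p* = 0.0284). *Kcnk12*, encoding a channel of the halothane-inhibited subfamily, was 7.24, 7.21, and 7.27 and then 6.92, 7.18, and 6.98 (-0.22, standard error 0.09, unadjusted *p* = 0.0405). For both genes the NL-G-F·*Mutyh* values lay below all wild-type values, by a narrow margin in replicate 2 for *Kcnk12*. With 1 array left out in turn, *Kcnk9* passed that level for 2 of the 6 arrays and *Kcnk12* for 1, and with array weights *Kcnk12* differed by -0.14 and did not pass. *Kcnk13*, its close relative and a channel known from microglia, was 6.08, 6.16, and 6.18 in wild-type and 6.19, 6.21, and 6.34 in NL-G-F·*Mutyh* mice. These values did not overlap either, but the difference of 0.11 (95% interval -0.07 to 0.29) did not pass an unadjusted *p* of 0.05. The 10 microglial markers averaged 0.41 higher, with 7 past that level but not *Cx3cr1* or *Tmem119*.

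*Kcnk1*, encoding the weakly rectifying channel TWIK, was the 2-pore gene that lay higher. It was 10.01, 10.02, and 10.14 in wild-type and 10.46, 10.32, and 10.18 in NL-G-F·*Mutyh* mice (0.26, standard error 0.09, 120% wild type, unadjusted *p* = 0.0261, limma adjusted *p* = 0.315). The groups were separate. *Kcnk1* passed that level with 2 of the 6 arrays left out in turn. The related *Kcnk6* differed by 0.09 (95% interval -0.08 to 0.26). Of 9 tested 2-pore genes, 4 lay lower (4.75% of all tested transcript clusters) and 1 higher (8.88%), and the median difference was 0.005.

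The *Kcnh* family, named for the ether-a-go-go channel of flies, had 3 of 5 tested genes lower at an unadjusted *p* under 0.05 and none higher, beside 4.75% lower and 8.88% higher of all tested transcript clusters. *Kcnh5*, a member of the eag subfamily, was 7.68, 7.60, and 7.54 in wild-type and 7.41, 7.44, and 7.28 in NL-G-F·*Mutyh* mice (-0.23, standard error 0.08, 85.2% wild type, unadjusted *p* = 0.0207). *Kcnh3*, a forebrain gene of the elk subfamily, was 9.16, 8.74, and 8.87 and then 8.65, 8.69, and 8.59 (-0.29, standard error 0.11, unadjusted *p* = 0.0411), with wild-type replicate 1 standing above the other 2 wild-type mice. Without that mouse the *Kcnh3* difference was -0.17 (unadjusted *p* = 0.0754). *Kcnh2*, encoding the erg channel that also repolarizes the heart, was 7.41, 7.33, and 7.45 and then 7.32, 7.13, and 7.15 (-0.20, standard error 0.08, unadjusted *p* = 0.0462). All 3 genes were without overlap between the groups. *Kcnh3* and *Kcnh2* each passed with only 1 of the 6 arrays left out in turn, *Kcnh5* with 4. *Kcnh1* differed by 0.08 (95% interval -0.09 to 0.26) and *Kcnh7* by -0.05 (-0.21 to 0.11).

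*Kcna* genes encode fast channels of axons and terminals, and *Kcnab* genes the cytoplasmic subunits bound to them. *Kcna4*, encoding an inactivating channel of axon terminals that is strong in mossy fibres, was 8.41, 8.06, and 8.39 in wild-type and 8.59, 8.41, and 8.72 in NL-G-F·*Mutyh* mice. NL-G-F·*Mutyh* replicate 2 lay within the wild-type range (0.29, standard error 0.13, unadjusted *p* = 0.0575, limma adjusted *p* = 0.379). A second transcript cluster of *Kcna4* separated the groups, with 8.02, 7.93, and 7.98 against 8.40, 8.23, and 8.31 (0.34, standard error 0.07, unadjusted *p* = 0.00273, limma adjusted *p* = 0.187). The study chose this second transcript cluster by contrasts with mice carrying the *App* knock-in alone. For the present contrast it lists a smaller difference that did not reach a *p* of 0.05. The wild-type level listed there is above the one in these files, and the NL-G-F·*Mutyh* level is close. Most of the difference given here is thus absent from the study's values, and it is no independent evidence.

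*Kcnab1*, whose product speeds the inactivation of *Kcna* channels, was 8.69, 8.57, and 8.71 in wild-type and 8.85, 8.89, and 8.79 in NL-G-F·*Mutyh* mice. It lay higher without overlap (0.19, standard error 0.07, 114% wild type, unadjusted *p* = 0.0347, limma adjusted *p* = 0.335), but with 3 of the 6 arrays left out in turn it did not pass that level, nor with centring on all transcript clusters, a replicate block or no minimum signal. *Kcnab2* differed by 0.12 (95% interval -0.11 to 0.36) and *Kcnab3* by -0.17 (-0.40 to 0.06). The axonal genes *Kcna1* and *Kcna2* differed by 0.11 (-0.09 to 0.31) and -0.08 (-0.29 to 0.13). *Kcna6* differed by -0.20 (-0.45 to 0.04). *Kcna3*, known also from lymphocytes and microglia, differed by -0.08 (-0.26 to 0.10), with overlapping values, where 7 of 10 microglial markers lay higher.

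The *Kcnq* genes carry the muscarine-sensitive M-current, and the *Kcnc* genes the fast delayed rectifier of rapidly firing interneurons. *Kcnq3* was 9.63, 9.52, and 9.62 in wild-type and 9.86, 9.75, and 9.55 in NL-G-F·*Mutyh* mice, overlapping (0.13, 95% interval -0.10 to 0.36). *Kcnq5* differed by -0.09 (-0.34 to 0.15). *Kcnc1*, *Kcnc2*, and *Kcnc4* differed by 0.01 (-0.17 to 0.20), -0.02 (-0.23 to 0.19), and -0.14 (-0.31 to 0.03). None of these 5 genes lay past an unadjusted *p* of 0.05, where 13.6% of all tested transcript clusters did. *Kcnq3* passed it without NL-G-F·*Mutyh* replicate 3 (0.21, unadjusted *p* = 0.0417).

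**Figure D4:**
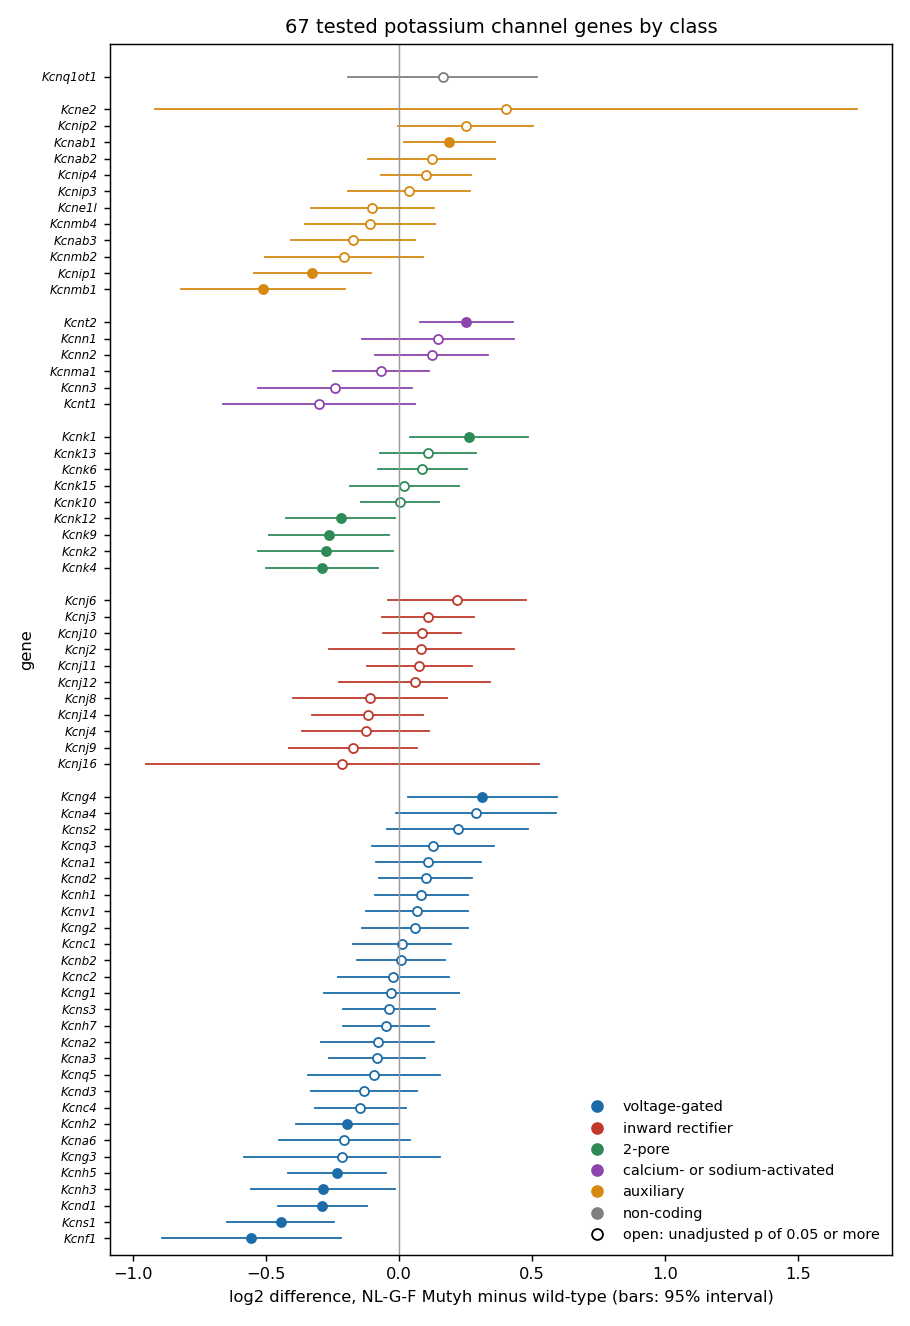
Log2 difference, NL-G-F·*Mutyh* minus wild type (x axis) with its 95% interval (bars, limma) for the 67 tested potassium channel genes (y axis), coloured by class. Filled circles mark an unadjusted *p* under 0.05, none of which was kept after adjustment, and *Kcne2* and *Kcnj16* have the widest intervals.

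Sodium-activated channels open when sodium accumulates during firing. *Kcnt2* was 8.82, 8.90, and 8.94 in wild-type and 9.19, 9.16, and 9.06 in NL-G-F·*Mutyh* mice. It lay higher in all NL-G-F·*Mutyh* mice (0.25, standard error 0.07, 119% wild type, unadjusted *p* = 0.0113, limma adjusted *p* = 0.264) and ran from 0.22 to 0.29 with 1 array left out. Its partner *Kcnt1* was 7.67, 7.64, and 7.14 in wild-type and 7.07, 7.21, and 7.26 in NL-G-F·*Mutyh* mice, overlapping because of wild-type replicate 3 (-0.30, 95% interval -0.66 to 0.06, unadjusted *p* = 0.0905). Without that mouse the *Kcnt1* difference was -0.47 (unadjusted *p* = 0.00206 in limma), and with array weights it was -0.31 (unadjusted *p* = 0.0493). The difference between the pair was not tested.

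Small-conductance calcium-activated channels, which follow bursts of firing with hyperpolarization, did not lie past an unadjusted *p* of 0.05, where 13.6% of all tested transcript clusters did. *Kcnn3* was 8.16, 7.89, and 7.83 in wild-type and 7.58, 7.68, and 7.90 in NL-G-F·*Mutyh* mice (-0.24, 95% interval -0.53 to 0.05). *Kcnn2* differed by 0.12 (-0.09 to 0.34). *Kcnn1* read 6.88, 6.43, and 6.78 in wild-type mice and the identical value of 6.84 in all 3 NL-G-F·*Mutyh* mice (0.15, -0.14 to 0.43). *Kcnn4*, known from microglia and blood cells, was below the minimum, with means of 5.27 and 5.08.

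None of the 11 tested inward rectifiers lay past an unadjusted *p* of 0.05, where 13.6% of all tested transcript clusters did. With 11 genes, that count is no result about the class. Their median difference was 0.06, beside 0.025 over all tested transcript clusters. The G-protein-gated *Kcnj6*, *Kcnj3*, and *Kcnj9*, which hyperpolarize neurons downstream of inhibitory receptors, differed by 0.22 (95% interval -0.04 to 0.48), 0.11 (-0.06 to 0.28), and -0.17 (-0.41 to 0.07). *Kcnj6* was 8.16, 8.11, and 8.28 in wild-type and 8.51, 8.50, and 8.19 in NL-G-F·*Mutyh* mice, with replicate 3 within the wild-type range. *Kcnj10*, the rectifier by which astrocytes take up potassium, was 9.19, 9.19, and 9.23 in wild-type and 9.29, 9.31, and 9.27 in NL-G-F·*Mutyh* mice. The groups did not overlap, and the difference was 0.09 (-0.06 to 0.23). The 7 astrocyte markers differed by a mean of 0.14. Of these, *Gfap* alone lay past that level, at 0.68, and the others ran from -0.225 (*Aldh1l1*) to 0.22 (*Aqp4*). *Kcnj4* of the strongly rectifying group differed by -0.12 (-0.36 to 0.11). The ATP-sensitive *Kcnj11* and *Kcnj8*, the latter typical of pericytes, differed by 0.08 (-0.12 to 0.27) and -0.11 (-0.40 to 0.18).

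*Kcnj16*, whose product pairs with that of *Kcnj10*, varied most among the inward rectifiers. It was 7.34, 7.35, and 7.18 in wild-type and 6.35, 7.17, and 7.70 in NL-G-F·*Mutyh* mice. NL-G-F·*Mutyh* replicate 1 was the lowest and replicate 3 the highest of the 6 mice (SD 0.68 against 0.10 in wild-type mice), so the difference of -0.21 has a wide interval (-0.95 to 0.53). *Kcnj2*, its neighbour on chromosome 11, was highest in the same replicate 1, at 7.13 where the other 5 mice lay from 6.58 to 6.76.

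*Kcne2*, encoding an auxiliary subunit with high levels in choroid plexus epithelium, spread more widely than any other tested member. It was 5.95, 7.12, and 8.005 in wild-type and 7.83, 6.62, and 7.83 in NL-G-F·*Mutyh* mice, replicates 1 and 3 of the latter being identical (SD 1.03 and 0.70). The difference was 0.40 with an interval from -0.92 to 1.72. The 6 tested choroid plexus markers averaged -1.03, 0.24, and 0.80 in wild-type and 0.55, -0.59, and 0.43 in NL-G-F·*Mutyh* mice, and wild-type replicate 1 had the lowest level of *Kcne2* and of 5 of these 6 markers. Among them, *Ttr*, encoding transthyretin, was 11.56, 13.34, and 13.55 in wild-type and 13.47, 12.51, and 13.33 in NL-G-F·*Mutyh* mice. How much choroid plexus each dissection held was not tested.

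**Figure D5:**
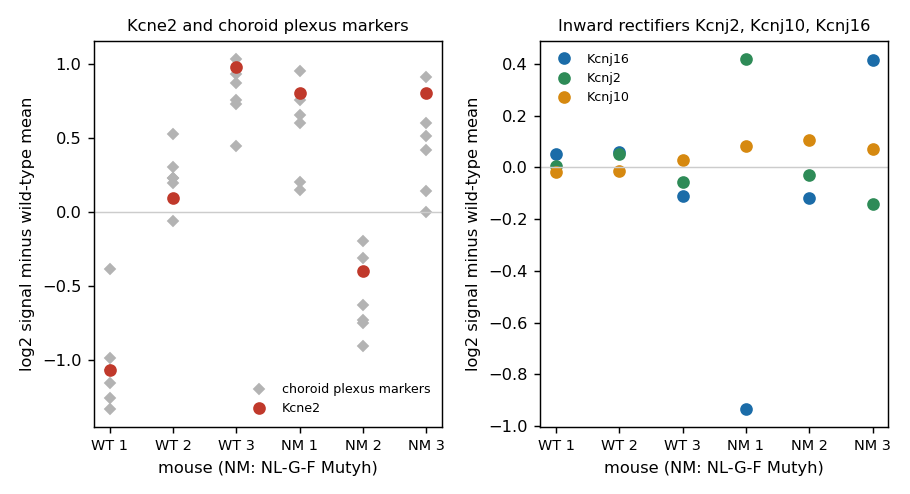
Log2 signal minus the wild-type mean of the gene (y axis) in each mouse (x axis, WT for wild-type and NM for NL-G-F·*Mutyh*), for *Kcne2* (red) with 6 choroid plexus markers (grey) on the left, and for *Kcnj16*, *Kcnj2*, and *Kcnj10* on the right. *Kcne2* and the markers are low in wild-type replicate 1 and NL-G-F·*Mutyh* replicate 2, and *Kcnj16* and *Kcnj2* part in NL-G-F·*Mutyh* replicate 1, at 6.35 and 7.13.

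The remaining members gave values close to wild type or below the minimum. *Kcne1l* differed by -0.10 (95% interval -0.33 to 0.13), and the non-coding *Kcnq1ot1* by 0.16 (-0.19 to 0.52), with wild-type replicate 1 at 6.88 and the other 5 mice from 7.31 to 7.44. The interval lay within 0.30 of 0 on either side for 22 of the 67 tested genes. The 22 genes below the minimum had group means from 3.65 (*Kcnu1*) to 5.35 (*Kcnh8*). Of these, *Kcnj5*, encoding a further G-protein-gated rectifier, read 4.59, 4.42, and 4.94 in wild-type and 5.41, 5.29, and 5.08 in NL-G-F·*Mutyh* mice. *Kcnq1*, known from heart and epithelia, read 4.91, 4.77, and 4.73 and then 5.15, 5.06, and 5.13. Neither pair of groups overlapped, but signals in this range were tested only in the setting without a minimum signal, and their results there are not given. *Kcnj13*, *Kcnk3*, and 1 of the transcript clusters of *Kcnmb4* carried several symbols and were left out.

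Genes that assemble with or anchor potassium channels were compared from a list of 30, of which 24 were tested. None lay lower and 2 lay higher at an unadjusted *p* under 0.05, close to the 4.75% and 8.88% of all tested transcript clusters, so the count is no result about these partners. *Nedd4l*, encoding a ubiquitin ligase that acts on *Kcnq* channels, was 10.57, 10.47, and 10.53 in wild-type and 10.86, 10.80, and 10.74 in NL-G-F·*Mutyh* mice, without overlap (0.28, standard error 0.07, unadjusted *p* = 0.00579, limma adjusted *p* = 0.219). *Lgi1*, encoding a secreted synaptic protein found with *Kcna* channels, was 10.52, 10.39, and 10.53 and then 10.66, 10.67, and 10.84 (0.25, standard error 0.08, unadjusted *p* = 0.0207), also without overlap. The median difference over the 24 genes was 0.02.

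To show the DNA in front of the genes that held in each setting in which they were tested, the 150 bases before the annotated start are given below for the 6 of the 7 that were matched in the RefSeq promoter table (GRCm38.p6), 5′ to 3′ along the gene. For *Kcnip1*, which has 3 annotated starts, the most 5′ one is shown. Capitals mark a GC box, searched as GGGCGG on both strands.
Kcns1, chr2:164171114-164171263, minus strand: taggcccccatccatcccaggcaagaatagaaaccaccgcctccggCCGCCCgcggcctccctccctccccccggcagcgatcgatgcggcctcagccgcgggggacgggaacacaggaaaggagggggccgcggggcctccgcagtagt
Kcnf1, chr12:17176889-17177038, minus strand: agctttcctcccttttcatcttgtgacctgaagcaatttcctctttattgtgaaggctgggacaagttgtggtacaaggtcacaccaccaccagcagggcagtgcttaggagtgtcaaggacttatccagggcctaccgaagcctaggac
Kcnmb1, chr11:33962863-33963012, plus strand: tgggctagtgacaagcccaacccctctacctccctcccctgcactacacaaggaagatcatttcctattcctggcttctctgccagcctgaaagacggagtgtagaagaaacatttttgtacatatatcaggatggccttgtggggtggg
Kcnip1, chr11:33993194-33993343, minus strand: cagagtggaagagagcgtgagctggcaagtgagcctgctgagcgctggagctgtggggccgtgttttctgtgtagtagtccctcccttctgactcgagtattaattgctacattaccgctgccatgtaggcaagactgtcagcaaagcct
Kcnk4, chr19:6934516-6934665, minus strand: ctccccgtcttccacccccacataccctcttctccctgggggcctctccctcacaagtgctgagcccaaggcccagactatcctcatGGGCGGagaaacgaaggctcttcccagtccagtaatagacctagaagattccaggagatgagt
Kcnt2, chr1:140245568-140245717, plus strand: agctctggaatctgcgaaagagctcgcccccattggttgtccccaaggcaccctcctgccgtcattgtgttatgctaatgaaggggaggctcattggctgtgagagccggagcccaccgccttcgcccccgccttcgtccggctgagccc

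Over the whole window around each start in that table, a GC box was present in 45 of 94 promoters of the potassium channel genes (47.9%; 69 genes matched) and in 35.7% of all 32851 promoters. For the genes lower at an unadjusted *p* under 0.05 it was present in 7 of 14 promoters, and for those that lay higher in 1 of 6. A TATA box, searched as TATAAA on both strands, was found in 4 of the 94 (4.26%) and in 13.6% of all promoters. The cyclic AMP response element, searched as TGACGTCA, which is its own reverse complement, was found in none of the 94 and in 1.79% of all promoters. The 6 sequences differ widely in base composition, with 15 CG dinucleotides in that of *Kcns1* and 1 each in those of *Kcnf1* and *Kcnmb1*. A GC box stood in the stretches of *Kcns1* and *Kcnk4* and in none of the other 4. Such a match describes the letters and shows no binding site.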

How the data were processed

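Each hippocampus gave 1 GeneChip Mouse Gene 2.0 ST array, hybridized with sense-strand targets made with the WT PLUS kit. The authors processed the arrays in Transcriptome Analysis Console 4.0. Their deposited values, log2 signals for each transcript cluster, were used here without further scaling. The way of summarizing, the normalization, and the genome build were not given in the sources used here. Arrays carry no read depth, so the 3 mice per group limit precision.

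Transcript clusters with a group mean of at least 50 in intensity entered lmFit and eBayes of limma 3.58.1 (R 4.3.3), all adjusted together by the Benjamini-Hochberg method. The fit was tested on simulated data. Intervals are limma's moderated 95% intervals. Classes were set from gene symbols. The 50 named genes, the ones compared across the alternatives, came from 3 sources. These were the genes with an unadjusted *p* under 0.05, in each class the 3 with the smallest *p* and the 3 with the highest mean, and a list of hippocampal, microglial, and vascular channels. Other genes given in the text were not compared gene by gene across the alternatives. *Kcnj5*, *Kcnq1*, and second transcript clusters were chosen after their values were seen. Members and lists were chosen with earlier results of these data known. All 89 symbols matched RefSeq. Lists were not tested as sets.

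Alternatives were other minimum signals, 3 scalings, transcript clusters with 1 symbol, a robust fit with an intensity trend, a replicate block, array weights, averaging over the transcript clusters of each gene, and leaving out each array.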

Additional observations from a re-analysis of the deposited data

How the results depend on the processing

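No potassium channel gene passed the adjusted test in any setting or with any array left out. Beside 12 lower and 4 higher genes at an unadjusted *p* under 0.05, there were 8 and 4 with the replicate number as a replicate block. Mice of the same number did not deviate together (correlations -0.10, 0.02, and -0.06), so they share only a number. The number of higher genes was 8 with array weights and 1 when arrays were centred on the median of all transcript clusters. With 1 array left out, the number of lower genes ran from 6 to 13 and of higher genes from 1 to 9. That centring moved the median over all tested transcript clusters from 0.025 to -0.026, the share lower from 4.75% to 7.55%, and the share higher from 8.88% to 4.88%. Quantile normalization gave 6.52% and 6.63%. The median difference under that centring was -0.078 for all potassium channel genes, -0.092 for voltage-gated, -0.044 for 2-pore, and -0.079 for auxiliary genes. The 2-pore median was -0.027 with quantile normalization and -0.019 with array weights, and the auxiliary median -0.074 with array weights and 0.012 when the transcript clusters of a gene were averaged. Without a minimum signal, which adds the genes below it, the calcium- or sodium-activated median was -0.105. With 1 array left out, medians ran from -0.059 to -0.001 over all potassium channel genes, -0.091 to -0.011 for voltage-gated, -0.033 to 0.068 for inward rectifier, -0.055 to 0.021 for 2-pore, -0.016 to 0.045 for calcium- or sodium-activated, and -0.097 to -0.007 for auxiliary genes. The cause of these moves was not tested. Of the 16 genes with an unadjusted *p* under 0.05, 7 held in every setting in which they were tested, *Kcns1* being untested with the minimum in both groups. Of the 50 named genes defined above, none past that level changed direction.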
